A study of Mus musculus with 4 samples.

Results

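Glucagon-expressing α-cells of mouse islets were compared between a library of untreated islets and a library of islets exposed to IL-1β for 6 h, with every gene in the count matrices considered. The members were 424 α-cells, 90 untreated and 334 IL-1β-treated, of 7471 cells that passed the limits in the whole series of 4 libraries. A barcode was kept when it had 200 to 4000 detected genes and at most 12% of its unique molecular identifiers (UMIs, which count molecules) from mitochondrially encoded genes. A kept cell was called an α-cell when *Gcg* made at least 2% of its UMIs and exceeded *Ppy*, *Ins1* and *Ins2* together made under 2%, and *Sst* made under 1%. The members were thus chosen by the measured shares of these 5 hormone genes in the same cells, and the values of those genes are given as a description only.

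The islets came from male C57BL/6 mice (C57BL6/J in the study's methods), were pooled across animals and were then divided into 4 portions that were left untreated or received IL-1β, IFN-γ or both cytokines ex vivo for 6 h. The islets were dissociated only after treatment, so that each α-cell had met the cytokine inside an islet beside β-cells, δ-cells and resident macrophages. Each treatment was 1 library, prepared with a droplet method that reads the 3′ ends of transcripts. A difference between libraries therefore has no replicate check, no p-value was computed, and the effect of IL-1β and the difference between any 2 portions of islets cannot be told apart.

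α-Cells secrete glucagon, the hormone that raises blood glucose by driving hepatic glucose output, when glucose falls or amino acids rise. Their identity is held by transcription factors such as PAX6 and the IRX family. IL-1β acts through the receptor IL1R1 and the adaptor MyD88, which activate the kinase IKK and release NF-κB from its inhibitor IκBα so that it can drive genes of inflammation. In β-cells this pathway is known for inducing *Nos2*, the inducible nitric oxide synthase, and α-cells are the other abundant endocrine cell in the same tissue.

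The untreated library held 3486 barcodes with 50731370 UMIs, of which 1521 cells were kept, and the IL-1β library held 2911 barcodes with 20056630 UMIs, of which 2018 were kept. α-Cells made 5.92% of the kept untreated cells and 16.6% of the kept IL-1β-treated cells. The 90 untreated α-cells had a median of 10917.5 UMIs (range 1445 to 16147) and 3231 genes, against 6394 UMIs (range 530 to 15395) and 2234 genes in the 334 treated cells. Untreated α-cells were thus sequenced deeper per cell, while the treated group held more UMIs in total, 2236290 against 934396. The median mitochondrial share was 4.42% in untreated and 6.29% in treated α-cells. The part of these differences in depth and mitochondrial share in the results below was not tested, except through thinning every cell to 4000 UMIs, which left out 6 untreated and 34 treated α-cells. No barcode was shared by α-cells of the 2 libraries.

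Of the kept cells with *Gcg* at 2% or more, 103 untreated and 431 treated, the rule set aside 13 and 97. Insulin transcripts at 2% or more accounted for 11 untreated and 63 treated cells, *Sst* for 0 and 26, and *Ppy* above *Gcg* for 4 and 8, with some cells failing more than 1 condition. The lowest *Gcg* share inside the rule was 2.18% in the untreated library and 3.51% in the IL-1β library, and the highest share just outside it was 1.41% and 1.85%. The highest insulin share inside was 1.99% and 1.94%, and the lowest outside was 2.27% and 2.61%. The upper limit on genes removed a further 16 untreated and 12 treated cells.

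The α label held against its markers. Besides *Gcg*, which made 21.1% of all untreated and 16.9% of all treated α-cell UMIs, transthyretin (*Ttr*), the homeobox factor *Irx2* and the vitamin D-binding protein gene *Gc* were detected in both groups. Their levels are given as UMIs per 1000000 α-cell UMIs (CPM), with *Irx2* at 178 untreated and 182 treated and *Gc* at 548 and 615. In β-cells, taken as cells with at least 10% insulin transcripts, *Irx2* was at 1.51 and 1.88 CPM and *Gc* at 3.27 and 7.39 CPM. Insulin transcripts made 0.543% of untreated and 0.116% of treated α-cell UMIs, against 42.3% and 23.3% in β-cells of the same libraries. If all of that insulin came from β-cell RNA outside the cells, the background would be 1.28% of the β-cell level in the untreated library and 0.498% in the IL-1β library. This is an estimate and not a bound, because the rule itself kept insulin transcripts under 2% in every member. Markers of acinar, endothelial, mesenchymal and macrophage cells were low, while those of PP, ductal and δ-cells were not. The 3 PP-cell markers summed to 21024 and 16681 CPM, led by *Pyy* at 14929 and 10914 CPM, and the ductal markers are given with *Spp1*, their leading gene. The 6 acinar markers summed to 71.7 and 16.1 CPM, led by *Ctrb1* at 39.6 and 7.60 CPM. The 6 endothelial markers summed to 3.21 and 2.68 CPM, led by *Pecam1* at 1.07 and 1.79, with *Cdh5* and *Kdr* at 0 in both libraries. The 6 mesenchymal markers summed to 9.63 and 6.26 CPM, led by *Col1a2* at 7.49 and 2.24, with *Col1a1* and *Lum* at 0 in both. The 6 macrophage markers summed to 51.4 and 9.84 CPM, nearly all *C1qa* (49.2 and 8.50 CPM), while *C1qb*, *C1qc* and *Tyrobp* were at 0 in both. Of the 5 δ-cell markers, *Ghsr* was at 0 in both and *Hhex* in the untreated cells, and the sum of 2909 and 1684 CPM was mostly *Rbp4* (2703 and 1449).

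A gene entered the comparison when the mean of its untreated and treated CPM was at least 20, and 5748 genes did. Of these, 395 (6.87%) were at least 2-fold higher with IL-1β and 363 (6.32%) at least 2-fold lower, and the median log2 ratio of all genes entered was -0.02. A gene at or under 13.3 CPM in 1 library could enter only by being at least 2-fold higher in the other, and 98 of the 395 and 62 of the 363 entered in this way. Counts and medians over the members of a list that entered are therefore a description. Of all 31053 genes in the files, entered or not, 6841 had a higher CPM with IL-1β, 7708 a lower one and 16504 were at 0 in both, so that 47.0% of the genes detected were higher. Among genes detected that did not enter, 45.8% were higher. The median fold was 2.80 among the 395 and 2.39 among the 363. The 95% interval of counting error lay wholly above 2-fold for 169 genes and wholly below 0.5 for 83. All intervals given here cover counting error only, not the spread between islet preparations. With the 7 hormone genes *Gcg*, *Ins1*, *Ins2*, *Sst*, *Ppy*, *Pyy* and *Iapp* left out of the totals, 398 genes were at least 2-fold higher and 580 lower. The plot of the ratio against abundance shows that the high side reached much larger ratios than the low side.

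**Figure D1:**
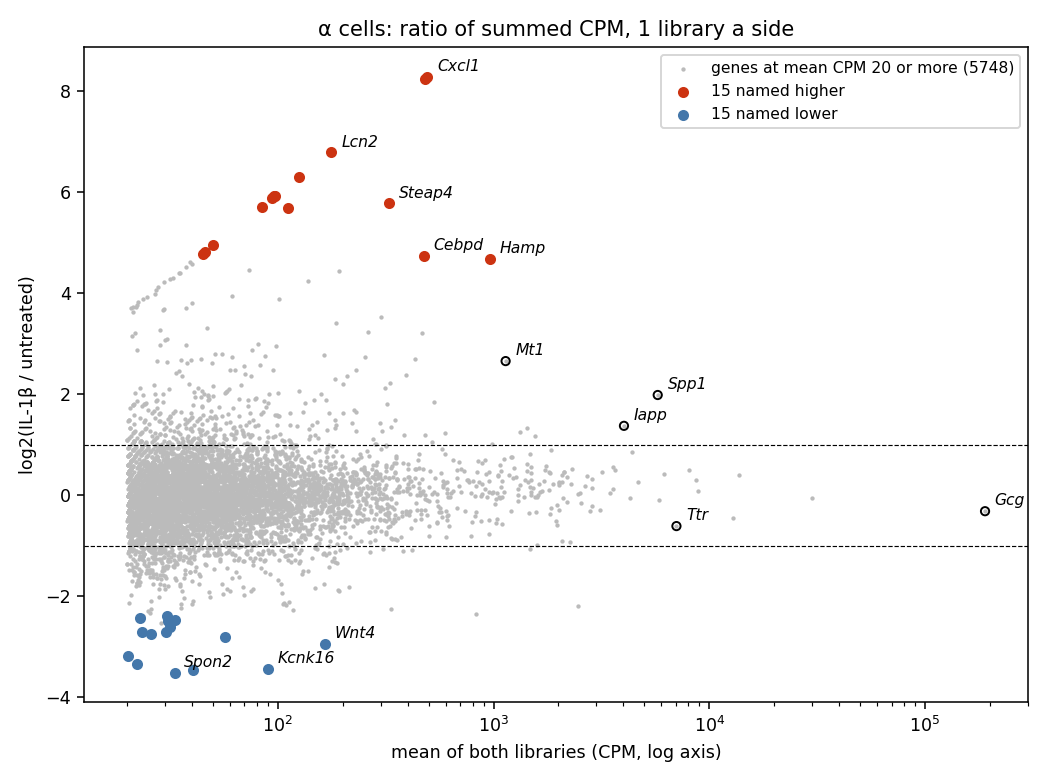
Ratio of summed CPM in IL-1β-treated over untreated α-cells (log2, y axis) against the mean CPM of both libraries (log axis) for 5748 genes, with genes under 3 UMIs in a library set to 3 UMIs and dashed lines at 2-fold. The 15 genes named as higher (red) lie between log2 4.67 and 8.27 and the 15 named as lower (blue) between -3.51 and -2.38, while *Gcg* and *Ttr* lie between 0 and -1.

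Chemokine and secreted cytokine genes included *Cxcl1* and *Ccl2*, the 2 largest ratios of the 15 genes named as higher. Of 29 listed genes, 28 were in the files and 7 entered, of which 6 were at least 2-fold higher and 1 lower, with a median log2 ratio of 4.77 beside -0.02 for all genes. All 6 were at 0 or 2 UMIs untreated and entered through the IL-1β library alone, so that their direction and this median were fixed by the limit. Over the 28 genes, entered or not, 19 had a higher CPM with IL-1β, 4 a lower one and 5 were at 0 in both, many of them on few UMIs, beside 47.0% higher among all genes detected. *Cxcl1* (chromosome 5, 90891241 to 90893115, mm10), a neutrophil-attracting chemokine, was at 0 of 934396 UMIs in untreated α-cells, where a floor of 3 UMIs equals 3.21 CPM and the exact upper limit is 3.95 CPM, and at 988 CPM (95% interval 947 to 1030) with IL-1β. Against that floor over the untreated cells it was at least 308-fold higher, with a counting interval from 250-fold. Bounds of this kind depend on the floor. After thinning, where 3 UMIs are a larger share of the fewer untreated UMIs, the log2 ratio against the floor fell from 8.27 to 6.71 for *Cxcl1* and from 8.23 to 6.68 for *Ccl2*. For genes on 1 or 2 untreated UMIs the ratio is given without the floor, with its interval, and its size cannot be set beside these bounds. *Ccl2* (chromosome 11, 82035571 to 82037453), which attracts monocytes, went from 0 to 962 CPM, at least 300-fold higher against the floor (interval from 243). *Cxcl2*, a second neutrophil chemokine encoded near *Cxcl1* (chromosome 5, 90903871 to 90905938), went from 0 to 251 CPM, at least 78.3-fold higher (interval from 63.4). The colony-stimulating factor genes followed, and both act on the making of leukocytes. *Csf3* went from 0 to 55.9 CPM (at least 17.4-fold, interval from 13.95) and *Csf1* from 2.14 to 87.6 CPM (40.9-fold, interval 11.2 to 340 on 2 untreated UMIs). The transmembrane chemokine *Cxcl16* went from 0 to 41.6 CPM, at least 13-fold higher (interval from 10.3). *Il6* was at 0 UMIs untreated and 2.68 CPM treated, and *Il1b*, the gene of the cytokine itself, was at 0 and 0.894 CPM, both below the level needed to enter.

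The interferon-inducible chemokine *Cxcl10* was the listed gene on the low side, at 54.6 CPM untreated and 19.7 CPM treated. All 51 untreated UMIs lay in a single cell. Without the cell highest for the gene in each library its log2 ratio was 2.33 rather than -1.47, so its direction rests on 1 cell. The same untreated cell, with 15108 UMIs and *Gcg* at 16.3%, also held all 17 UMIs of *Ifit3*, all 9 of *Ifit2*, 13 of 15 of *Rsad2* and 11 of 12 of *Gbp3*, each an antiviral or interferon-induced gene. Other interferon-linked genes were spread over more cells, and the cell held 11 of 21 UMIs of *Ifit1*, 10 of 24 of *Irgm1* and 0 of 17 of *Ccl5*. *Nos2*, *Cxcl1*, *Ccl2* and *Icam1* were at 0 UMIs in all untreated α-cells, so their absence from this cell does not set it apart.

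Genes of the NF-κB pathway itself were mostly higher. Of 27 listed subunits, inhibitors and classic targets, 17 entered, 12 were at least 2-fold higher and 0 were at least 2-fold lower, with a median log2 ratio of 2.70. Of the 12, 6 entered through the IL-1β library alone and had to be higher. Over all 27 genes, entered or not, 25 had a higher CPM with IL-1β, 1 a lower one and 1 was at 0 in both, beside 47.0% higher among all genes detected. Among inhibitors, *Nfkbia*, which encodes IκBα and so closes the feedback loop (chromosome 12, 55489410 to 55492647), went from 48.2 to 554 CPM, an 11.5-fold difference (interval 8.55 to 15.9). The ubiquitin-editing inhibitor *Tnfaip3* (A20) went from 2.14 to 42.0 CPM on 2 untreated UMIs, and its partner *Tnip1* from 16.1 to 69.3 CPM. *Zc3h12a*, an RNase that degrades inflammatory transcripts, went from 3.21 to 39.4 CPM. Among subunits, *Nfkb1*, which encodes p50, went from 31.0 to 115 CPM. *Relb*, of the noncanonical branch, went from 6.42 to 54.6 CPM. The nuclear IκB proteins, which act as cofactors, followed the same direction, with *Nfkbiz* going from 18.2 to 133 CPM and *Bcl3* from 33.2 to 112 CPM. *Rela* itself was at 18.2 and 26.8 CPM, short of 2-fold. Among targets, the adhesion molecule *Icam1* was at 0 untreated and 188 CPM treated, at least 58.5-fold higher (interval from 47.4). *Birc3*, an inhibitor of apoptosis, went from 1 UMI (1.07 CPM) to 194 CPM, a ratio of 181 with a counting interval of 32.3 to 7162. *Sod2*, the mitochondrial superoxide dismutase, went from 116 to 749 CPM (6.48-fold, interval 5.34 to 7.95). *Cyld*, *N4bp1*, *Birc2*, *Nfkbib* and *Rela* were the 5 members entered that stayed under 2-fold, with log2 ratios between 0.08 and 0.69.

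Promoter sequences were available from RefSeq (GRCm38.p6, the assembly also called mm10) as windows from 250 bases before to 50 after each annotated start, and were searched on both strands for the κB consensus, the 10-base element bound by NF-κB. A match was present in 1480 of 32851 promoters (4.51%), and in 307 of 5876 promoters (5.22%) of the genes entered. Among genes at least 2-fold higher, 311 of 395 had a sequence and 44 of their 408 promoters (10.8%) held a match. Among genes at least 2-fold lower, 285 of 363 had a sequence and 18 of 366 promoters (4.92%) held one. A match describes these letters and was not measured as a binding site. The 150 bases before the start are shown for 2 chemokine genes, the feedback inhibitor and *Sod2*, because these genes were among those with the clearest differences and hold a match there. Capitals mark the match, and where matches on overlapping positions or strands run together the capitals cover their union.
Cxcl1: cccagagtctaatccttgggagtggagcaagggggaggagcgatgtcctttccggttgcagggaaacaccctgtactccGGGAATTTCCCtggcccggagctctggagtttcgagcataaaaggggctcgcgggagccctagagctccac
Cxcl2: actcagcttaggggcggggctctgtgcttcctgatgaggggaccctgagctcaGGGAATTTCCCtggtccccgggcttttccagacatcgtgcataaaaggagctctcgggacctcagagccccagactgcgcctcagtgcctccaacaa
Nfkbia: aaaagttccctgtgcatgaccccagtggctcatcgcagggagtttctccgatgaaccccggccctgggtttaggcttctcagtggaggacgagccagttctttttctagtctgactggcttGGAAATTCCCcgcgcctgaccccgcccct
Sod2: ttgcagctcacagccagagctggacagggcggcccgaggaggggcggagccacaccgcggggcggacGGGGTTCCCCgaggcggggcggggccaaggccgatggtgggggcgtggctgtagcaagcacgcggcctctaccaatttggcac
The windows are chr5:90891095-90891244 (plus strand), chr5:90903749-90903898 (plus strand), chr12:55492648-55492797 (minus strand) and chr17:13007689-13007838 (plus strand), each read 5′ to 3′ on the gene's strand. *Cxcl1* and *Cxcl2* share the same run of capitals, starting 71 and 97 bases before the start, and the matches of *Nfkbia* and *Sod2* start 29 and 83 bases before it. The promoters of *Icam1*, *Birc3* and *Lcn2* used here held no match in this window.

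Of 24 listed genes on the receptor side of the pathway 9 entered, and 1 of these was at least 2-fold higher, beside 6.87% of all genes entered. Over the 24 genes, entered or not, 19 had a higher CPM with IL-1β and 5 a lower one, beside 47.0% higher among all genes detected. *Il1r1*, the signaling IL-1 receptor, was at 260 CPM in untreated and 444 CPM in treated α-cells, a 1.71-fold difference (interval 1.48 to 1.97). In β-cells *Il1r1* was at 239 and 243 CPM. On this scale of all UMIs the median log2 ratio of β-cell genes was 0.45, beside -0.02 in α-cells. *Chuk*, which encodes the kinase IKKα, went from 27.8 to 59.5 CPM, but its log2 ratio of 1.10 was 0.47 in cells thinned to 4000 UMIs. The median log2 ratio of the 9 genes was 0.40.

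Of 21 listed acute-phase and defense genes, 18 had a higher CPM with IL-1β, 0 a lower one and 3 were at 0 in both, some on few UMIs, beside 47.0% higher among all genes detected. Of the 21 genes 7 entered, 6 were at least 2-fold higher and 0 lower, and the median log2 ratio was 4.39. Of the 6, 5 entered through the IL-1β library alone and had to be higher. *Lcn2*, lipocalin 2, which binds bacterial iron carriers (chromosome 2, 32384633 to 32388252), went from 2 UMIs (2.14 CPM) to 352 CPM, a ratio of 164 with an interval of 45.4 to 1360. *Steap4*, a metalloreductase of iron and copper, went from 11.8 to 642 CPM (54.5-fold, interval 30.4 to 110). *Defb1*, β-defensin 1, went from 17.1 to 368 CPM (21.5-fold, interval 13.1 to 37.7). *Serpina3n*, an acute-phase protease inhibitor, went from 0 to 47.4 CPM, at least 14.8-fold higher (interval from 11.8). *Tlr2*, a receptor for bacterial lipoproteins, went from 6.42 to 53.7 CPM. *Saa3*, serum amyloid A3, went from 2.14 to 67.5 CPM, but 47 of its 151 treated UMIs lay in 1 cell and 8 of 334 cells held any.

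Several of the 15 genes named for the largest ratios lie outside these lists. *Hamp*, hepcidin, the peptide that lowers iron export from cells (chromosome 7, 30942368 to 30944032), went from 72.8 to 1854 CPM (25.5-fold, interval 20.05 to 32.9). Of its 68 untreated UMIs 28 lay in 1 cell, and 13 untreated cells held any. *Cd14*, the co-receptor for lipopolysaccharide best known from monocytes, went from 4.28 to 219 CPM (51.2-fold, interval 19.9 to 189). In the same treated α-cells the macrophage genes *C1qb*, *C1qc* and *Tyrobp* were at 0, while *C1qa* was at 8.50, *Fcer1g* at 0.894 and *Lyz2* at 0.447 CPM. *Cd14* was found in 32 of the 37 macrophage-like cells of the IL-1β library, and their part in its level in α-cells was not tested. In β-cells *Cd14* was at 0.603 and 0.883 CPM. *Lrg1*, a secreted leucine-rich glycoprotein of the acute phase, went from 0 to 193 CPM, at least 60-fold higher (interval from 48.6). The lectin gene *Cd302* went from 1 UMI to 90.3 CPM, with a ratio of 84.4 (interval 14.98 to 3350). *Cd14*, *Lrg1* and *Cd302* entered through the IL-1β library alone and had to be higher.

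*Cebpb* and *Cebpd*, C/EBP factors that act with NF-κB on acute-phase genes, were also higher, while *Cebpg* stayed within 2-fold and *Cebpa* did not enter. Of 17 genes of the C/EBP, STAT3 and feedback list 10 entered, 5 were at least 2-fold higher and 1 lower, with a median log2 ratio of 1.12. Among all genes entered, 6.87% were at least 2-fold higher and 6.32% lower. Over the 17 genes, entered or not, 14 had a higher CPM with IL-1β and 3 a lower one, beside 47.0% higher among all genes detected. *Cebpd* went from 34.2 to 914 CPM (26.7-fold, interval 18.8 to 39.1) and *Cebpb* from 50.3 to 471 CPM (9.36-fold). *Socs3*, which restrains cytokine receptors, went from 63.1 to 165 CPM. The AP-1 factor *Junb* went from 107 to 342 CPM. *Zfp36*, which destabilizes cytokine mRNAs, went from 24.6 to 64.8 CPM. *Il6ra*, the IL-6 receptor, was at 89.9 and 44.7 CPM, at the edge of 2-fold lower.

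**Figure D2:**
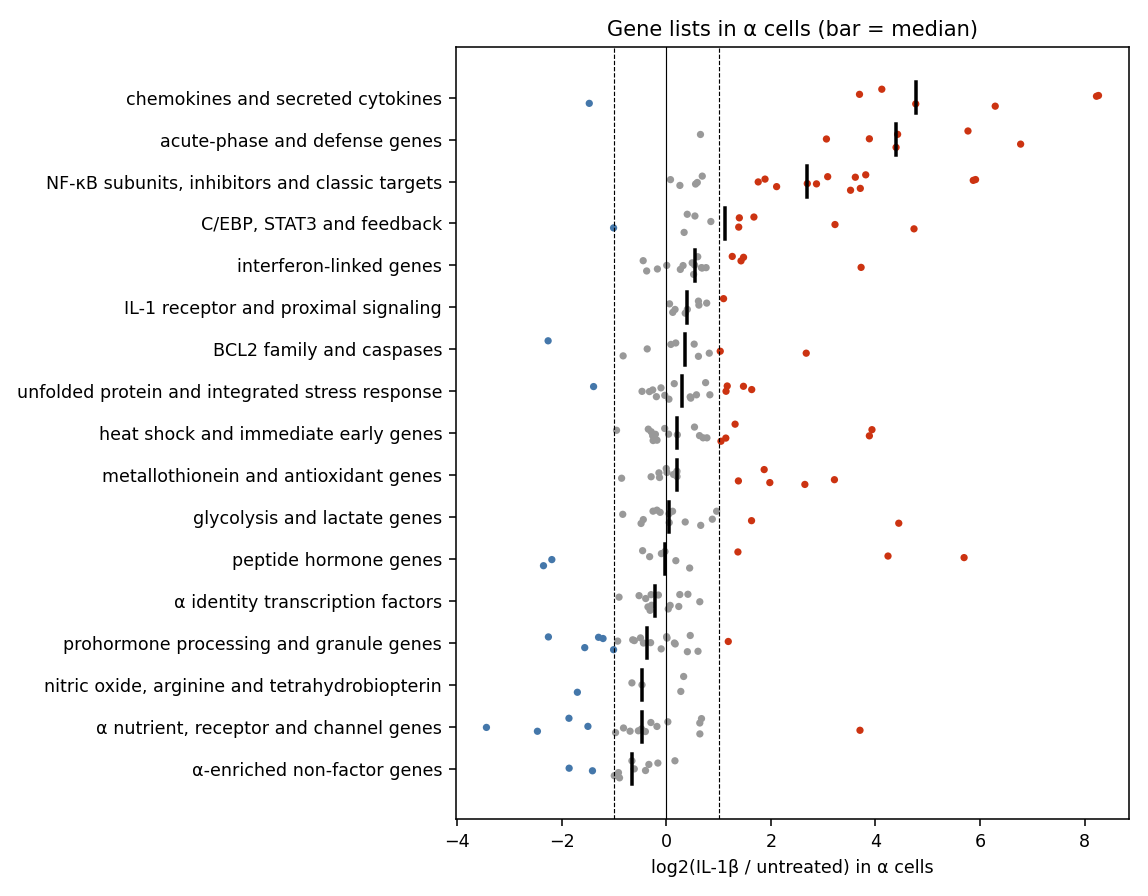
Log2 ratio of IL-1β-treated over untreated α-cells for each member of 17 gene lists at a mean CPM of 20 or more; each dot is a gene, the peptide list includes the hormone genes used by the rule, genes under 3 UMIs in a library are set to 3 UMIs, black bars are list medians and dashed lines mark 2-fold. Chemokines (median 4.77), acute-phase genes (4.39) and NF-κB genes (2.70), many of which entered through the IL-1β library alone, stand at the top, and α-enriched genes (-0.66) at the bottom.

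Identity factors of the α-cell that entered were within 2-fold, while 2 other α-enriched genes were past it. Of 16 listed transcription factors 14 entered, 0 were at least 2-fold higher or lower, and the median log2 ratio was -0.22. The share past 2-fold among all genes was 6.87% higher and 6.32% lower, so a count of 0 of 14 is near the background. *Pou3f4* (7.49 and 4.02 CPM) and *Foxa1* (0 and 0.447 CPM) did not enter. *Irx1*, a homeobox factor of α-cells, was at 176 CPM untreated and 138 CPM treated, a ratio of 0.785 (interval 0.647 to 0.954). On the other side of 1, *Pax6* was at 198 and 264 CPM and *Foxa2*, a pioneer factor of endoderm, at 80.3 and 125 CPM, a ratio of 1.56 (interval 1.21 to 2.04). The 14 log2 ratios ran from -0.90 to 0.64. Of 12 α-enriched genes other than factors, 11 entered, 2 were at least 2-fold lower and 0 higher, with a median log2 ratio of -0.66. Of the 2, 1 (*Dpp4*) entered through the untreated library alone and had to be lower. Over the 12 genes, entered or not, 2 had a higher CPM with IL-1β and 10 a lower one. Among all genes detected 53.0% were lower. *Ttr* was at 8516 and 5573 CPM, a ratio of 0.654 (interval 0.636 to 0.673). *Slc38a5*, an amino acid transporter that carries glutamine into α-cells, was at 106 and 53.2 CPM, just short of 2-fold lower. The peptidase gene *Dpp4* went from 32.1 to 12.1 CPM and the kinase gene *Wnk3* from 120 to 33.1 CPM.

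Among peptide genes, *Gcg* (chromosome 2, 62474530 to 62483650), which the rule used, was at 210707 CPM untreated and 169069 CPM treated. The median share of *Gcg* in a cell was 21.8% in untreated and 17.0% in treated α-cells. *Pyy*, peptide YY, was at 14929 and 10914 CPM, and *Ppy* at 6021 and 5646 CPM. *Iapp*, islet amyloid polypeptide, which β-cells co-secrete with insulin (chromosome 6, 142298423 to 142303961), was at 2244 CPM untreated and 5802 CPM treated, a 2.59-fold difference (interval 2.47 to 2.71). The background of β-cell RNA estimated above would carry 683 CPM of *Iapp* into untreated and 319 CPM into treated α-cells, which by this estimate leaves 1561 and 5484 CPM. Without the upper limit on genes its log2 ratio was 0.99. *Tac1*, the precursor of substance P, went from 13.9 to 263 CPM (18.9-fold, interval 11.0 to 35.7). *Gal*, galanin, went from 3 UMIs (3.21 CPM) to 166 CPM, a ratio of 51.8 (interval 17.6 to 252). *Ins1* and *Ins2*, also used by the rule, were lower with IL-1β at 1386 to 272 CPM and 4042 to 887 CPM. Of the 17 listed peptide genes that the rule did not use, 6 entered, 3 were at least 2-fold higher and 0 lower, with a median log2 ratio of 0.91. Among all genes entered, 6.87% were at least 2-fold higher and 6.32% lower. Of the 3, *Gal* entered through the IL-1β library alone and had to be higher.

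Granule and hormone-processing genes went in both directions. Of 22 listed genes 20 entered, 1 was at least 2-fold higher and 5 were lower, and the median log2 ratio was -0.37. Among all genes entered, 6.87% were at least 2-fold higher and 6.32% lower. Over the 22 genes, entered or not, 9 had a higher CPM with IL-1β and 13 a lower one, beside 53.0% lower among all genes detected. *Slc30a8*, the zinc transporter of secretory granules (chromosome 15, 52295553 to 52335798), went from 552 to 116 CPM, 4.77-fold lower (interval 4.10 to 5.56). *Scgn*, the calcium sensor secretagogin, went from 137 to 46.5 CPM, the small GTPase gene *Rab3a* from 43.9 to 17.9, and the exocytosis calcium sensor *Syt7* from 151 to 65.3. *Syt13* was at 230 and 114 CPM, at the edge of 2-fold. The enzymes that cut proglucagon were close to level or higher, with *Pcsk2*, which yields glucagon, at 2453 and 2478 CPM and the carboxypeptidase *Cpe* at 1786 and 2455 CPM. *Vgf*, a granule protein precursor of several peptides, was the member at least 2-fold higher, from 235 to 536 CPM (2.28-fold, interval 1.97 to 2.64).

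Receptor and channel genes included *Kcnk16* and *Gpr119*, 2 of the 15 genes named for the smallest ratios. Of 25 listed nutrient, receptor and channel genes 17 entered, 4 were at least 2-fold lower and 1 higher, with a median log2 ratio of -0.47. Among all genes entered, 6.32% were at least 2-fold lower and 6.87% higher. The 1 higher gene and 2 of the 4 lower ones entered through 1 library alone, which fixed their direction. Over the 25 genes, entered or not, 7 had a higher CPM with IL-1β, 17 a lower one and 1 was at 0 in both. Among all genes detected 53.0% were lower. *Kcnk16*, the islet potassium channel TALK-1 of the K2P family (chromosome 14, 20261376 to 20269199), went from 165 to 15.2 CPM, 10.8-fold lower (interval 7.44 to 16.2). *Gpr119*, a lipid receptor of islet and gut endocrine cells, went from 56.7 to 10.3 CPM (5.51-fold lower, interval 3.32 to 9.43). *Avpr1b*, the vasopressin receptor through which vasopressin stimulates glucagon release, went from 47.1 to 13.0 CPM (3.63-fold lower, interval 2.22 to 6.02). *Gria2*, a subunit of AMPA glutamate receptors, went from 203 to 72.0 CPM (2.82-fold lower). The glucose transporter *Slc2a1* went the other way, from 5.35 to 69.8 CPM (13-fold higher, interval 5.47 to 40.7). The channel subunits *Kcnj11* (38.5 and 39.4 CPM) and *Abcc8* (401 and 277 CPM) of the ATP-sensitive potassium channel stayed within 2-fold.

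Outside the lists, the genes named for the smallest ratios included enzymes and secreted proteins. *Ddc*, DOPA decarboxylase, which makes dopamine and serotonin, went from 73.8 to 6.71 CPM (11.0-fold lower, interval 6.24 to 20.7). *Spon2*, a secreted matrix protein, went from 61.0 to 5.37 CPM (11.4-fold lower, interval 6.03 to 23.3). *Wnt4*, a Wnt ligand made by islet cells (chromosome 4, 137277489 to 137299726), went from 293 to 38.0 CPM (7.71-fold lower, interval 6.03 to 9.96). *Hapln1*, a link protein of hyaluronan matrix, went from 99.5 to 14.3 CPM (6.96-fold lower). *Dio1*, a deiodinase of thyroid hormone, went from 51.4 to 9.84 CPM. The other 8 genes named on this side besides *Kcnk16* and *Gpr119* (*Lgi2*, *Gstp1*, *Nt5dc2*, *Tmsb15l*, *Fgd2*, *Rab37*, *Mapk15* and *Sorcs2*) were between 36.4 and 54.6 CPM untreated and between 4.02 and 9.39 CPM treated. *Ddc*, *Spon2*, *Dio1* and these 8 genes were under 13.3 CPM treated. They entered through the untreated library alone and had to be lower.

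*Nos2* (chromosome 11, 78920787 to 78960254) was at 0 UMIs in untreated α-cells and at 55 UMIs (24.6 CPM) with IL-1β, at least 7.66-fold higher (interval from 6.02). It was found in 28 of 334 treated cells (8.38%, exact binomial interval 5.64% to 11.9%), and in 17 of 300 (5.67%) after thinning. In β-cells of the same libraries, with a median of 8580 UMIs when treated, it was at 0.0503 and 148 CPM and in 24.5% of thinned treated cells. Of the 37 macrophage-like cells of the IL-1β library, with a median of 5170 UMIs, 0 held *Nos2*, which allows a share of cells with a UMI of up to 8.11% (3 cells of the total, for counting error only). By the estimate from insulin, β-cell RNA outside the cells would carry 0.736 CPM into treated α-cells. Of 14 genes of nitric oxide and arginine metabolism 5 entered, 0 were at least 2-fold higher and 1 was lower, with a median log2 ratio of -0.46. Among all genes entered, 6.87% were at least 2-fold higher and 6.32% lower, so counts over 5 genes say little. Over the 14 genes, entered or not, 6 had a higher CPM with IL-1β, 7 a lower one and 1 was at 0 in both. *Gch1*, which makes the cofactor tetrahydrobiopterin, was at 219 and 266 CPM.

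Of 40 listed interferon-linked genes 17 entered, 4 were at least 2-fold higher and 0 lower, with a median log2 ratio of 0.54. Among all genes entered, 6.87% were at least 2-fold higher and 6.32% lower. Of the 4, 2 entered through the IL-1β library alone and had to be higher. Over the 40 genes, entered or not, 23 had a higher CPM with IL-1β, 16 a lower one and 1 was at 0 in both. Among all genes detected 47.0% were higher. The GTPase gene *Gbp2* went from 0 to 42.5 CPM, at least 13.2-fold higher (interval from 10.6), *Isg20*, an RNA exonuclease, from 136 to 326 CPM, and the cytidine deaminase *Apobec3* from 31.0 to 83.6 CPM. *Gbp3* was at 12.8 and 35.8 CPM, on 12 untreated UMIs of which 11 lay in the cell described for *Cxcl10*. The factor *Irf1* was at 37.5 and 54.6 CPM, within 2-fold.

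The stress lists held genes past 2-fold and more genes within it. Among all genes entered, 6.87% were at least 2-fold higher and 6.32% lower, and among all genes detected 47.0% were higher. Of 20 metallothionein and antioxidant genes 15 entered and 5 were at least 2-fold higher, with a median log2 ratio of 0.20. Over the 20 genes, entered or not, 12 had a higher CPM with IL-1β, 6 a lower one and 2 were at 0 in both. The metal-binding *Mt1* went from 313 to 1962 CPM (6.28-fold, interval 5.58 to 7.09) and *Mt2* from 91.0 to 845 CPM (9.29-fold, interval 7.47 to 11.7). Heme oxygenase *Hmox1* went from 19.3 to 76.0 CPM and glutathione peroxidase *Gpx1* from 63.1 to 231 CPM, while *Gpx4* was at 432 and 239 CPM. Of 21 genes of the unfolded protein and integrated stress response 18 entered, 4 were at least 2-fold higher and 1 lower. Over these 21 genes, entered or not, 14 had a higher CPM with IL-1β and 7 a lower one. The factor *Xbp1* went from 185 to 515 CPM (2.78-fold, interval 2.37 to 3.28) and the co-chaperone *Dnajb9* from 112 to 349 CPM, while *Sdf2l1* went from 111 to 42.5 CPM and the chaperone *Hspa5* was at 710 and 974 CPM. Of 21 heat shock and immediate early genes 19 entered and 5 were at least 2-fold higher. Of the 5, 2 entered through the IL-1β library alone and had to be higher. Over these 21 genes, entered or not, 12 had a higher CPM with IL-1β and 9 a lower one. *Ier3*, an immediate early gene of survival signaling, went from 12.8 to 190 CPM. *Hspa1a* was at 80.3 and 200 CPM, with 54 of 75 untreated UMIs in 1 cell and a log2 ratio of 0.38 after thinning instead of 1.32.

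Genes of cell death and glycolysis showed single large differences. Of 27 BCL2 family, caspase and death receptor genes 10 entered, 2 were at least 2-fold higher and 1 lower. Among all genes entered, 6.87% were at least 2-fold higher and 6.32% lower. The 1 lower gene and 1 of the 2 higher ones entered through 1 library alone, which fixed their direction. Over the 27 genes, entered or not, 18 had a higher CPM with IL-1β, 7 a lower one and 2 were at 0 in both. Among all genes detected 47.0% were higher. The death receptor *Fas* went from 10.7 to 68.4 CPM (6.39-fold, interval 3.38 to 13.6), and the pro-apoptotic *Bik* from 42.8 to 8.94 CPM (4.79-fold lower, interval 2.73 to 8.64). The anti-apoptotic *Mcl1* was at 78.1 and 138 CPM. Of 21 glycolysis and lactate genes 15 entered and 2 were at least 2-fold higher, with a median log2 ratio of 0.06. Of the 2, 1 entered through the IL-1β library alone and had to be higher. Over the 21 genes, entered or not, 14 had a higher CPM with IL-1β and 7 a lower one. *Pfkfb3*, which makes the activator of phosphofructokinase, went from 6.42 to 140 CPM (21.8-fold, interval 9.90 to 59.8), and lactate dehydrogenase *Ldha* from 36.4 to 113 CPM (3.10-fold, interval 2.16 to 4.57). *Spp1*, osteopontin, a secreted phosphoprotein that is also a ductal marker, went from 2333 to 9203 CPM (3.94-fold, interval 3.77 to 4.12). The 6 ductal markers summed to 2898 and 9866 CPM, of which *Spp1* was by far the greater part, and *Sox9* was at 0 untreated. *Spp1* was found in 76.2% of untreated and 96.3% of treated thinned α-cells and in 3.96% and 13.8% of thinned β-cells. The part of free RNA from ductal cells in these shares was not tested.

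Response across individual α-cells was read after thinning to 4000 UMIs, which left 84 untreated and 300 treated cells. The UMIs of the 27 NF-κB list genes per cell had a median of 2 (range 0 to 9) in untreated and 10 (range 1 to 30) in treated cells. The groups of cells overlapped, but 17 of 84 untreated cells and 0 of 300 treated cells held no UMI of these genes. *Cebpd* was found in 11.9% of untreated and 86.0% of treated cells, *Sod2* in 34.5% and 84.3%, *Nfkbia* in 16.7% and 77.3%, and *Steap4* in 3.57% and 71.7%. These genes were thus detected in most treated α-cells. Before thinning, the shares of all treated cells were 87.7% for *Cebpd*, 79.6% for *Nfkbia* and 71.3% for *Steap4*. A second set was found in under 50% of treated cells. *Cxcl1* was found in 0 of 84 untreated cells, which allows a share of cells with a UMI of up to 3.57%, and in 44.0% of treated cells. *Ccl2* was found in 0 untreated and 38.7% of treated cells, and *Icam1* in 0 and 37.0%. *Hamp* was found in 8.33% of untreated and 49.0% of treated cells. *Lcn2* (0 untreated cells and 16.0% of treated), *Tac1* (4.76% and 15.7%) and *Gal* (1.19% and 14.3%) were found in smaller shares. Before thinning, *Cxcl1* was found in 47.0%, *Ccl2* in 44.0%, *Icam1* in 44.0% and *Hamp* in 49.1% of the 334 treated cells. Of the 37 macrophage-like cells of the IL-1β library, not thinned, 4 held *Cxcl1*, 8 *Ccl2*, 3 *Icam1*, 3 *Cebpd*, 1 *Lcn2* and 0 *Hamp*, *Steap4*, *Tac1* or *Gal*. For *Cxcl2* and *Cd14* the macrophage-like cells had the higher share, with 14 and 32 of 37 cells against 13.7% and 20.7% of thinned treated α-cells. *Sod2* was found in 29 and *Nfkbia* in 25 of these 37 cells. The tenth of treated cells highest for each gene held 93.8% of *Lcn2*, 94.1% of *Gal* and 92.7% of *Tac1* UMIs. It held 94.5% for *Cxcl2*, 82.4% for *Cd14* and 76.3% for *Ccl2*, against 58.8% for *Cxcl1*, 37.5% for *Steap4* and 27.9% for *Cebpd*. Of the 132 thinned cells with *Cxcl1*, 69 (52.3%) also held *Ccl2*, against 47 of 168 (28.0%) without it, and for *Cxcl2* the shares were 34 of 132 (25.8%) and 7 of 168 (4.17%). For *Hamp* they were 52.3% and 46.4%. Of the 43 cells with *Gal*, 8 (18.6%) held *Tac1*, against 39 of 257 (15.2%) without *Gal*. The shares of cells are counts within 1 library and were not tested.

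**Figure D3:**
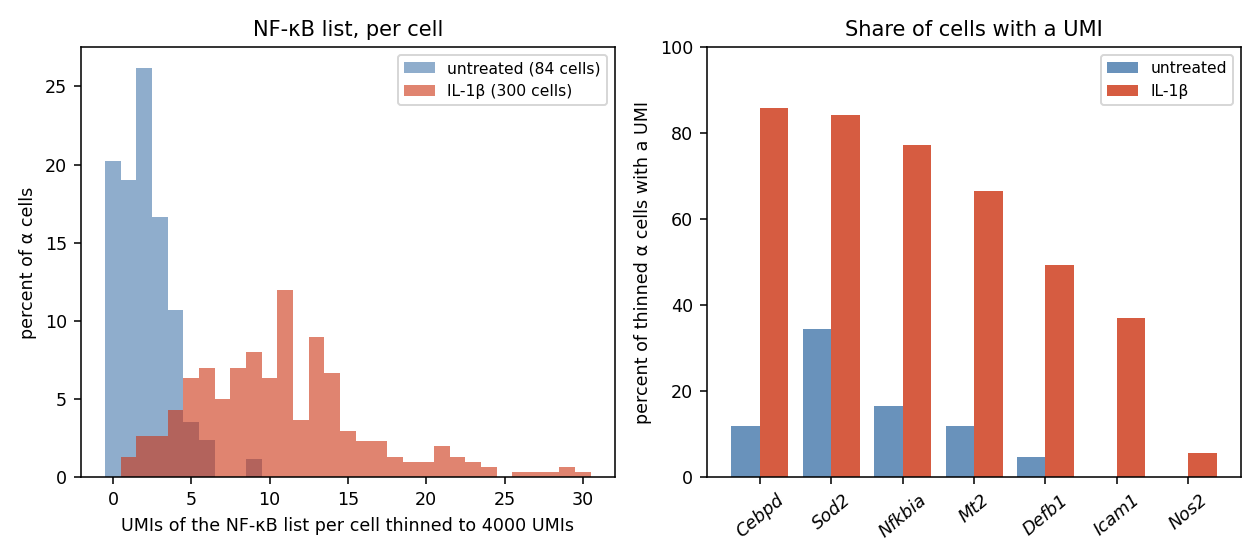
Left, UMIs of the NF-κB list per α-cell after thinning to 4000 UMIs (x axis) against the percent of cells (y axis) in the untreated (84 cells) and IL-1β (300 cells) libraries; right, percent of the same cells with at least 1 UMI of each of 7 genes. The medians were 2 and 10 UMIs, and *Cebpd* went from 11.9% to 86.0% of cells.

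β-Cells of the same libraries, 1157 untreated and 1030 treated, give the nearest comparison, although they shared the islets and libraries and the difference between cell types was not tested. In β-cells 893 of 5053 genes (17.7%) were at least 2-fold higher and 108 (2.14%) at least 2-fold lower, where α-cells had 6.87% and 6.32%. These counts depend on the scaling, since insulin transcripts fell from 42.3% to 23.3% of β-cell UMIs and the median log2 ratio of β-cell genes was 0.45. With the 7 hormone genes out of the totals, 465 of 6806 β-cell genes (6.83%) were at least 2-fold higher and 517 (7.60%) lower, beside 6.00% and 8.75% in α-cells. CPM values of β-cells, above and below, are on the scale of all UMIs. Of the NF-κB list, 15 of 18 genes entered in β-cells were at least 2-fold higher, beside 12 of 17 in α-cells. Some genes reached like levels with IL-1β in the cell types, with *Cebpd* at 914 CPM in α- and 917 in β-cells and *Birc3* at 194 and 201. Among chemokines, *Cxcl1* reached 988 CPM in α- and 266 in β-cells, and *Ccl2* 962 and 134. *Hamp* reached 1854 CPM in α- and 163 in β-cells. These are levels with IL-1β, and the ratios to untreated cells need not follow the same order. *Hamp* was 25.5-fold higher in α-cells, from 72.8 CPM, with 28 of the 68 untreated UMIs in 1 cell. In β-cells *Hamp* went from 1 UMI (0.0503 CPM), a ratio of 3233 (interval 579 to 127769). *Cxcl1* was at 0 UMIs in untreated cells of both types. Against 3 UMIs of each total it was at least 308-fold higher in α- and 1764-fold in β-cells. These are lower bounds that depend on the size of each total, so they do not give an order of the cell types. Lower levels in treated β-cells were also seen for *Gal* (166 and 10.3 CPM) and *Cd302* (90.3 and 5.41 CPM). The reverse held for *Defb1*, at 368 CPM in α- and 999 in β-cells, for *Mt2*, at 845 and 1939, for *Gbp2*, at 42.5 and 296, and for *Nos2*. The plot of 14 of the 15 named genes in both cell types shows 1 gene, *Cd14*, that stayed under 1 CPM in treated β-cells.

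**Figure D4:**
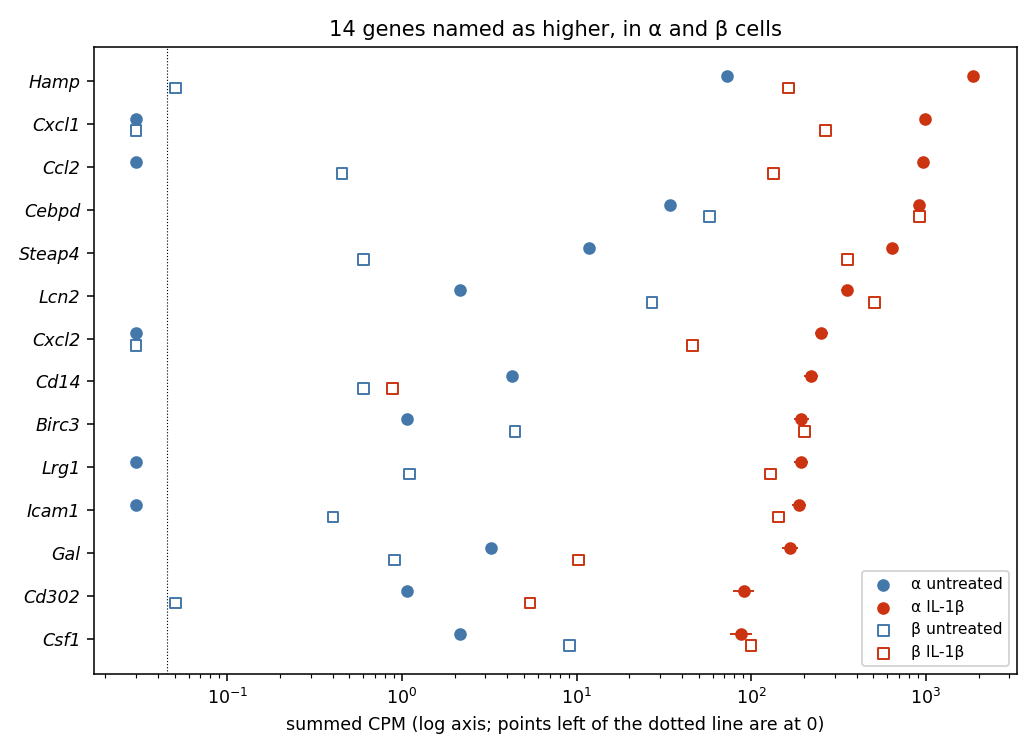
Summed CPM (log axis) of 14 of the 15 genes named as higher, in α-cells (filled circles) and β-cells (open squares) of the untreated (blue) and IL-1β (red) libraries, with 95% counting intervals on the treated α-cells and points at 0 drawn left of the dotted line. *Hamp* reached 1854 CPM in α- and 163 in β-cells, while *Cebpd* reached 914 and 917.

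The remaining 2 libraries give a second pair that differs by IL-1β, both cytokines against IFN-γ alone, with 167 and 296 α-cells and no sample in common with the first pair. In this pair 345 of 5846 genes (5.90%) were at least 2-fold higher and 565 (9.66%) at least 2-fold lower. Of the 395 genes higher with IL-1β alone, 370 entered the second pair, 185 were again at least 2-fold higher and 1 was at least 2-fold lower. Among all 5418 genes that entered both pairs, 282 (5.20%) were at least 2-fold higher and 519 (9.58%) lower in the second. Of the 363 lower genes, 309 entered, 119 were again at least 2-fold lower and 1 was higher. A gene that is near 0 without IL-1β can enter the second pair only by being high with both cytokines, so the counts were also taken with no limit on entry, an alternative chosen after seeing the data. Then 198 of the 395 genes (50.1%) were again at least 2-fold higher and 141 of the 363 (38.8%) again lower, against 5.17% and 10.3% of all 5748 genes. Of the 87 genes at least 5-fold higher in the first pair, 81 were again at least 2-fold higher, and of the 19 at least 5-fold lower, 15 were again lower. *Cxcl1* was at 11.8 CPM with IFN-γ and 646 with both cytokines, and *Ccl2* at 13.9 and 1321. *Steap4* was at 11.0 and 498 CPM, and *Hamp* at 38.4 and 1559. These 4 genes were thus high in both libraries that received IL-1β and low in both that did not. Among lower genes, *Kcnk16* was at 134 and 19.5 CPM, *Wnt4* at 195 and 50.5 CPM and *Spon2* at 61.6 and 6.73 CPM. *Iapp* was at 2350 and 5051 CPM. *Nos2* reached 153 CPM and *Icam1* 899 CPM with both cytokines, from 3.79 and 5.90 CPM with IFN-γ. Some differences did not recur or were smaller. *Gstp1* was 9.04-fold lower in the first pair but at 10.1 and 8.75 CPM in the second. *Ttr* turned direction, with a ratio of 0.654 in the first pair and 1.38 in the second (6299 and 8675 CPM). *Spp1* was at 3259 and 4408 CPM, a 1.35-fold difference beside 3.94-fold.

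**Figure D5:**
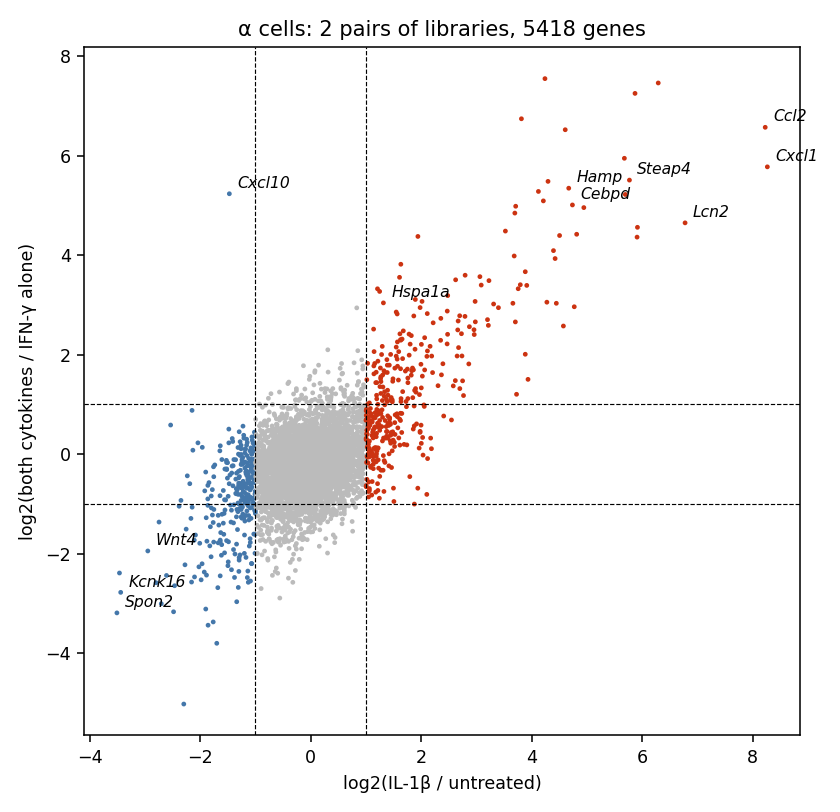
Log2 ratio of IL-1β over untreated (x axis) against log2 ratio of both cytokines over IFN-γ alone (y axis) in α-cells for 5418 genes that entered both pairs, with red and blue marking genes at least 2-fold higher and lower in the first pair and dashed lines at 2-fold. Of 370 red genes 185 lie above the upper dashed line and 1 below the lower line, and of 309 blue genes 119 lie below the lower line.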

How the data were processed

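Single cells of mouse islets were measured in 4 libraries, 1 per treatment, prepared on a droplet platform whose kit is version 3 in the methods and version 2 in the labels. The deposited matrices hold raw UMI counts made by the authors with Cell Ranger (header version 3.0.0, build mm10 per the labels), with no normalization, for 31053 genes. Cells were chosen by the stated limits on genes, mitochondrial share and hormone shares, no doublet caller was run, and the rule sets aside cells with a second hormone. UMIs were summed over the α-cells of a library and divided by their total to give CPM, with exact Poisson intervals. Ratios have exact conditional binomial intervals and shares exact binomial intervals, at the 95% level and for counting error only, and a gene under 3 UMIs in a library was set to 3 UMIs for log2 ratios, ranks and counts of genes. Printed ratios of genes on 1 or 2 UMIs are without this floor. The limit beside a share of 0 is 3 cells of the total. Genes entered at a mean CPM of 20, and "called" means at least 2-fold. Thinning drew 4000 UMIs from each cell, seed 1. Named genes were the 15 highest and 15 lowest ratios whose direction held after thinning and with hormone genes out of the totals, leaving out hormone genes of the rule, mitochondrial genes and markers of other cell types, plus members of 17 lists. Counts over list members that did not enter, and β-cell counts with hormone genes out of the totals, were added after seeing the data. Other genes were named after their values were seen, and some members are not reported here. The members and lists were chosen with earlier results of these data known. β-Cells had at least 10% insulin transcripts and under 2% of each other hormone, and macrophage-like cells had at least 4 of 6 markers. Gene positions are from GENCODE M21 (31011 of 31053 identifiers matched). The steps were tested on simulated data. Python 3.11.15, numpy 2.4.6, scipy 1.17.1, pandas 2.3.3 and matplotlib 3.10.9 were used. With 1 library a treatment there was no statistical test between treatments.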

Additional observations from a re-analysis of the deposited data

How the results depend on the processing

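Each treatment is 1 library, and the 2 pairs of libraries that differ by IL-1β were set side by side without a statistical test. Of 395 higher and 363 lower genes, 327 and 272 were also called after thinning to 4000 UMIs, 355 and 303 with cells weighted equally, 334 and 300 without the upper gene limit, 392 and 349 after subtracting β-cell RNA, and 370 and 296 without the cell highest for each gene, an alternative chosen after seeing the data. Thinning also called genes that the main setting did not, with 522 higher and 517 lower in all, of 5779 entered. With hormone genes out of the totals 580 genes were lower and the median log2 ratio was -0.11, with 6630 genes entered. The counts move with the limits by construction: 597 higher and 682 lower at a mean CPM of 10, 173 and 128 at 50, 916 and 1022 at 1.5-fold, and 175 and 87 at 3-fold. *Cxcl10* turned from a log2 ratio of -1.47 to 2.33 without its highest cell in each library. Some named calls were lost under some alternatives, and the cause was not tested. *Il6ra* (log2 ratio -1.01) moved as far as -0.90 with cells weighted equally and *Syt13* (-1.01) to -0.76 after thinning. Thinning took *Chuk* from 1.10 to 0.47 and *Hspa1a* from 1.32 to 0.38. *Hspa1b* went from 1.14 to 0.40 with cells weighted equally and *Hsph1* from 1.05 to 0.40 without cells high for *Hspa1a*. Without the upper gene limit *Bcl2l11* went from 1.03 to 0.74, *Ppp1r15a* from 1.14 to 0.80 and *Iapp* from 1.37 to 0.99. Depth limits genes with few UMIs in the 90 untreated cells, where 3 UMIs equal 3.21 CPM against 1.34 CPM in treated cells.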

Other observations

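In untreated α-cells *C1qa*, a complement gene used as a macrophage marker, was found in 31 of 90 cells at 49.2 CPM. *C1qb* and *C1qc* were at 0 of 934396 UMIs there. In treated α-cells *C1qa* was at 8.50 CPM. β-Cells held *C1qa* at higher levels, 70.1 CPM untreated and 38.7 CPM treated. Ribosomal protein genes made 11.2% of untreated and 13.1% of treated α-cell UMIs, and mitochondrially encoded genes 4.94% and 6.39%. Cells with *Hspa1a* at 10 or more UMIs per 10000 numbered 1 of 84 thinned untreated and 17 of 300 thinned treated α-cells. In those 17 treated cells the NF-κB list had a median of 9 UMIs, beside 10 in the other 283, and *Icam1* was found in 3 of 17 against 108 of 283. *Nos2* was found in 0 of 17 and 17 of 283 (6.01%), a share at which a count of 0 of 17 says little. *Sod2* was found in 11 of 17 and 242 of 283. *Nfkbia* went the other way, with 15 of 17 and 217 of 283, and *Mt2* was found in 12 of 17 and 188 of 283. Treated α-cells with *Ppy* at 1% or more (31 of the 300) held *Cxcl1* in 45.2% of cells, against 43.9% of the other 269, *Cxcl2* in 22.6% against 12.6%, *Icam1* in 45.2% against 36.1% and *Hamp* in 58.1% against 48.0%. *Lcn2* went the other way (12.9% and 16.4%), and *Tac1* (16.1% and 15.6%) and *Spp1* (96.8% and 96.3%) were close to level.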
